A study of Mus musculus with 12 samples.

Results

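Ucp1 and 9 other genes of heat-producing fat (Cidea, Elovl3, Fabp3, Cox8b, Cox7a1, Dio2, Ppargc1a, Prdm16 and Tmem26) were followed in gonadal white fat of male mice. The 10 genes were chosen by name, with earlier results of these data known. Their probes were found on the array through the RefSeq accession that each probe carries. They have 12 probes, Ppargc1a and Fabp3 having 2 each, and all 10 genes passed the filter on dim probes, out of 31447 genes or unnamed probes tested, of which 15948 carry a gene name. The mice were of the C57BL/6N strain and 59 to 67 days old, from crosses of a Gadd45a-deficient with an Ing1-deficient line. The 4 genotypes are Gadd45a-/-;Ing1-/- (DKO), Ing1-/- (Ing1-KO), Gadd45a-/- (Gadd45a-KO) and wild type (WT). Every genotype had 3 arrays, with the RNA of 3 animals pooled on an array and 9 animals per genotype. No treatment or cold exposure is named in the labels. Levels are normalized log2 signals of 1-colour arrays, and a level is not compared between probes, since each probe has its own brightness.

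Brown and beige adipocytes burn fat to release heat. Noradrenaline from sympathetic nerves binds beta-adrenergic receptors, raises cyclic AMP and activates protein kinase A, which frees fatty acids and switches on the thermogenic genes. The protein UCP1 then lets protons leak across the inner mitochondrial membrane, so that respiration yields heat in place of ATP. Gonadal fat of the mouse is a white depot that holds few such cells at ordinary housing temperatures. In RNA of a whole tissue, fewer cells of a type and less RNA per cell cannot be told apart.

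The cyclic AMP response element, whose full form is TGACGTCA and whose core is TGACG, is the best known DNA element through which this signal reaches thermogenic genes. The 250 bases before the start of transcription were read from the RefSeq promoter table of the assembly GRCm38.p6, in which 8 of the 10 genes have a row. The core stands on one strand or the other in 4 of these 8, Ucp1, Ppargc1a, Dio2 and Fabp3, and in 17.8% of 32851 promoters of the same length. The full element, which contains the core on both strands, was found in Dio2 and in 1.55% of all promoters. The promoters of the uncoupling protein gene itself and of 2 regulators are printed because these genes differ in how they varied between the arrays. Capitals mark the element, which begins 147 bases before the start in Ucp1 (chr8:83290098-83290347, plus strand), 49 bases before it in Ppargc1a (chr5:51567726-51567975, minus strand, where the core lies on the other strand) and 95 bases before it in Dio2 (chr12:90739039-90739288, minus strand). A match is a description of the letters and says nothing about binding in these mice.
Ucp1: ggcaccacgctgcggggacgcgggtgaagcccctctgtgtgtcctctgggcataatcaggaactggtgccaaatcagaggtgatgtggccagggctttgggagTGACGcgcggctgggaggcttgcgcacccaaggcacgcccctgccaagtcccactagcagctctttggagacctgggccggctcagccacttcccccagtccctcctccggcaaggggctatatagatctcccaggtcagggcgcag
Ppargc1a: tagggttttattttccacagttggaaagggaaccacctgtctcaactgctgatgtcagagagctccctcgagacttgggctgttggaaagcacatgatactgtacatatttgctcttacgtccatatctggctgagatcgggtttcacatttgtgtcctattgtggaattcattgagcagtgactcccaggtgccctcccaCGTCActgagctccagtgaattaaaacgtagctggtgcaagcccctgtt
Dio2: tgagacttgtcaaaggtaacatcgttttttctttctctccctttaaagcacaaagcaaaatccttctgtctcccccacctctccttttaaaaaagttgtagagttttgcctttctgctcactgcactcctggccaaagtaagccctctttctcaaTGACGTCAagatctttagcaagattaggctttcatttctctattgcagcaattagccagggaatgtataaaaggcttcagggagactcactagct

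The labels were checked on the targeted genes. The brightest Ing1 probe averaged 9.32 ± 0.25 in DKO and 9.40 ± 0.13 in Ing1-KO, while it averaged 12.55 ± 0.21 in Gadd45a-KO and 12.46 ± 0.03 in WT (log2 signal, SD, n = 3 arrays each). The only Gadd45a probe went against its labels: it averaged 10.61 ± 0.01 in arrays labelled DKO and 10.17 ± 0.11 in arrays labelled Gadd45a-KO, but 9.20 ± 0.12 in Ing1-KO and 9.51 ± 0.25 in WT (log2 signal, SD, n = 3 each). Where that probe lies relative to the deleted part is not known, so it does not settle which arrays lack Gadd45a. Every direction below that involves Gadd45a, with the group names DKO and Gadd45a-KO, rests on the labels alone. White adipocyte markers were well above background on all arrays, and of 5 epididymis markers, Crisp1, Lcn5, Lcn8 and Adam7 were too dim to be tested. The other, Rnase10, was bright enough to be tested, with 326 to 570 linear units over the 12 arrays. The median signal per array lay between 39.3 and 68.8 units and was lowest in WT replicate 2. Differences were tested with limma over all 12 arrays, with Benjamini-Hochberg adjustment of the p-values across the 31447 tests, and called at an adjusted p under 0.05. The tests weigh a difference of genotype means against the spread between pools of a genotype. The comparisons share arrays, so their results are not independent of each other.

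Ucp1 was highest in the DKO pools and differed widely among the pools of DKO, Gadd45a-KO and WT. Its log2 signal was 15.68, 14.06 and 14.61 in the 3 DKO arrays, 12.71, 13.35 and 13.46 in the Ing1-KO arrays, 13.24, 13.14 and 10.18 in the Gadd45a-KO arrays, and 12.29, 13.93 and 11.58 in the WT arrays. Every DKO pool thus lay above every other pool, by a narrow margin over WT replicate 2, while the other 3 genotypes overlapped. On the linear scale the lowest array, Gadd45a-KO replicate 3, had 1162 units and the highest, DKO replicate 1, had 52550 units. The order of the means was DKO, Ing1-KO, WT and Gadd45a-KO.

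Against Gadd45a-KO, Ucp1 rose 6.04-fold in DKO, by 2.59 ± 0.78 log2 units (SE; limma, adjusted p = 0.0445, n = 3 each). Against WT the log2 fold change in DKO was 2.18 ± 0.78, with a 95% interval of 0.49 to 3.87 and an adjusted p of 0.137 in limma, and was not called. The log2 difference of DKO from Ing1-KO was 1.61 ± 0.78 with an adjusted p of 0.948 in limma. Within the slides, each of which carries 1 array of every genotype, the log2 difference of DKO from Gadd45a-KO was 2.44, 0.92 and 4.42, and that of DKO from WT was 3.39, 0.13 and 3.03. Both differences were positive on every slide, and both were smallest on the slide that carries WT replicate 2. The size of the rise over Gadd45a-KO also depended on 1 pool: without Gadd45a-KO replicate 3 the log2 fold change was 1.59 and the adjusted p 0.149 in limma. The call was kept in 10 of 26 other fits and in 3 of the 12 that left out 1 array, those without WT replicate 2, WT replicate 3 or Gadd45a-KO replicate 1, with log2 fold changes between 1.59 and 3.21.

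For the single losses the Ucp1 differences were smaller than their errors. Ing1-KO against WT gave a log2 fold change of 0.57 ± 0.78, with a 95% interval of -1.12 to 2.26, and ran between 0.06 without WT replicate 3 and 1.24 without WT replicate 2. Gadd45a-KO against WT gave -0.41 ± 0.78, with an interval of -2.11 to 1.28, and its sign turned without WT replicate 2 or without Gadd45a-KO replicate 3. The interval for Ing1-KO reaches just past 2.18, the value of DKO against WT, and that for Gadd45a-KO does not reach it. That value has a wide interval of its own and shares the WT arrays. The intervals here thus do not test whether a single loss differs from DKO, for which the direct comparisons are given above.

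**Figure D1:**
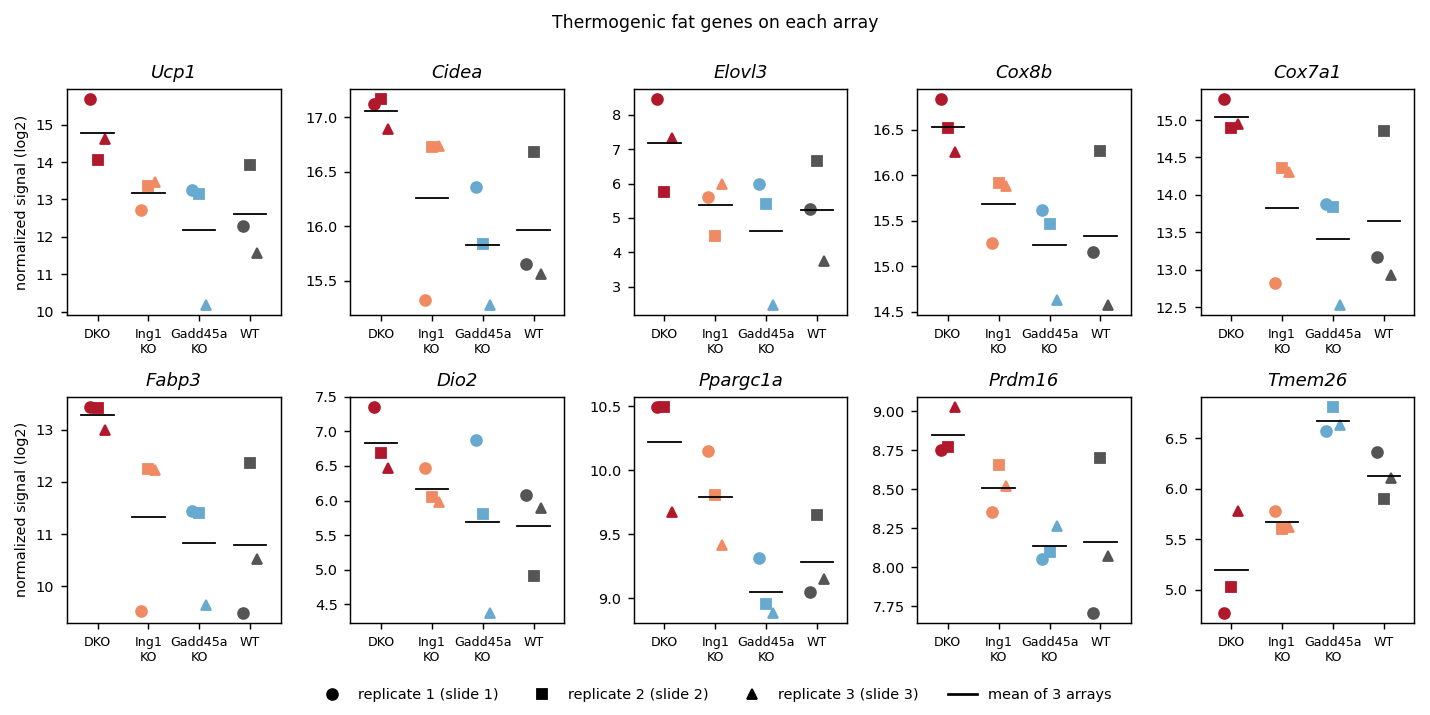
Normalized log2 signal of the 10 genes on each of the 12 arrays, by genotype (DKO, Ing1-KO, Gadd45a-KO, WT); points are arrays, with a shape for each replicate and slide, and bars are means of 3 arrays. The 3 DKO arrays are the highest for Ucp1 and Fabp3, among others, and lie low for Tmem26.

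Like Ucp1, the lipid genes Cidea, Fabp3 and Elovl3 had their highest mean in DKO and their next highest in Ing1-KO. Cidea, which encodes a lipid droplet protein abundant in brown adipocytes, had log2 signals of 17.12, 17.17 and 16.89 in DKO, 15.32, 16.73 and 16.73 in Ing1-KO, 16.36, 15.83 and 15.28 in Gadd45a-KO, and 15.65, 16.68 and 15.56 in WT. Its DKO pools lay close together and above all 9 others. The log2 fold change in DKO was 1.24 ± 0.40 against Gadd45a-KO and 1.10 ± 0.40 against WT (SE, n = 3 each), with adjusted p of 0.0568 and 0.143 in limma. Neither was called.

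Fabp3 encodes a cytosolic carrier of fatty acids found in heart, muscle and brown fat. The brighter of its 2 probes had log2 signals of 13.44, 13.41 and 13.00 in DKO, 9.52, 12.24 and 12.24 in Ing1-KO, 11.44, 11.40 and 9.63 in Gadd45a-KO, and 9.49, 12.36 and 10.53 in WT. All DKO pools lay above all others, and the lowest pools of the other genotypes were about equally low. Against WT the log2 fold change in DKO was 2.49 ± 0.80 with an adjusted p of 0.114, and against Gadd45a-KO it was 2.46 ± 0.80 with an adjusted p of 0.0583 (limma, SE, n = 3 each). The second probe followed the first, with log2 signals of 13.03, 13.10 and 12.64 in DKO against 9.25, 11.95 and 10.16 in WT. In the fit of every probe it passed against Gadd45a-KO with an adjusted p of 0.0498 in limma, while the brighter probe had 0.0569 there.

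Elovl3, an elongase of very long chain fatty acids that cold induces in brown fat, was dim. Its log2 signals were 8.46, 5.75 and 7.32 in DKO, 5.62, 4.48 and 6.00 in Ing1-KO, 6.00, 5.40 and 2.47 in Gadd45a-KO, and 5.26, 6.66 and 3.76 in WT. It was well above background on 3 of 3 DKO arrays and on 2 of 3 arrays of each other genotype. The groups overlapped between DKO and WT, since WT replicate 2 lay above DKO replicate 2. The log2 fold change in DKO was 2.55 ± 0.97 against Gadd45a-KO and 1.95 ± 0.97 against WT (SE, n = 3 each), neither of them called, with adjusted p of 0.0905 and 0.25 in limma. The first was 1.48 without Gadd45a-KO replicate 3 and the second 1.22 without WT replicate 3, arrays on which the gene was not well above background.

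Both genes of the respiratory chain are tissue forms of subunits of cytochrome c oxidase, the complex that passes electrons to oxygen. Cox8b had log2 signals of 16.84, 16.52 and 16.26 in DKO, 15.25, 15.92 and 15.88 in Ing1-KO, 15.62, 15.47 and 14.63 in Gadd45a-KO, and 15.16, 16.27 and 14.58 in WT. WT replicate 2 reached the lowest DKO pool, and all other arrays lay below DKO. Cox8b rose 2.46-fold in DKO over Gadd45a-KO, by 1.30 ± 0.38 log2 units (SE; limma, adjusted p = 0.0425, n = 3 each). The call was kept in 4 of 12 fits that left out 1 array, those without WT replicate 2, WT replicate 3, Ing1-KO replicate 1 or DKO replicate 3. The difference of DKO from WT was 1.20 ± 0.38 on the log2 scale with an adjusted p of 0.112 in limma, and was not called.

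Cox7a1, the form of subunit 7a found in heart, muscle and brown fat, had log2 signals of 15.28, 14.90 and 14.94 in DKO, 12.82, 14.36 and 14.31 in Ing1-KO, 13.87, 13.83 and 12.53 in Gadd45a-KO, and 13.17, 14.86 and 12.93 in WT. Here DKO lay just above WT replicate 2 and clearly above the rest. The log2 fold change in DKO was 1.63 ± 0.54 against Gadd45a-KO and 1.39 ± 0.54 against WT (SE, n = 3 each), with adjusted p of 0.0598 and 0.159 in limma, so that neither was called.

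Among the regulators, Ppargc1a and Prdm16 varied less between pools than Dio2 did. Ppargc1a encodes PGC-1alpha, the coactivator that drives mitochondrial biogenesis and Ucp1 transcription. Its brighter probe had log2 signals of 10.49, 10.50 and 9.68 in DKO, 10.15, 9.80 and 9.42 in Ing1-KO, 9.31, 8.96 and 8.89 in Gadd45a-KO, and 9.05, 9.65 and 9.15 in WT. The DKO pools lay above all Gadd45a-KO and WT pools but overlapped the Ing1-KO pools. Ppargc1a rose 2.25-fold in DKO over Gadd45a-KO, by 1.17 ± 0.26 log2 units (SE; limma, adjusted p = 0.0187, n = 3 each). The call was kept in 8 of 12 fits that left out 1 array and lost without Gadd45a-KO replicate 2 or 3 or DKO replicate 1 or 2. Against WT it had 0.94 ± 0.26 and an adjusted p of 0.0872, which became 0.0479 in limma with the slide as a replicate block, 0.049 without WT replicate 2 and 0.0193 without DKO replicate 3. The dimmer Ppargc1a probe had 6.72, 6.56 and 6.50 in DKO, 6.32, 5.67 and 5.49 in Ing1-KO, 5.37, 5.18 and 5.20 in Gadd45a-KO, and 5.16, 5.45 and 5.53 in WT, and on it DKO lay above all other pools. In the fit of every probe, its log2 difference of DKO from Ing1-KO was 0.77 ± 0.22 with an adjusted p of 0.952 in limma. On the brighter probe that difference was 0.43 ± 0.26, and neither was called.

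Prdm16 encodes the transcription factor that directs precursors to the brown and beige adipocyte fate. Its log2 signals were 8.75, 8.77 and 9.03 in DKO, 8.35, 8.66 and 8.52 in Ing1-KO, 8.06, 8.10 and 8.27 in Gadd45a-KO, and 7.71, 8.70 and 8.07 in WT. All DKO pools lay above all others, by little over WT replicate 2. In DKO it rose 1.64-fold over Gadd45a-KO, by 0.71 ± 0.21 log2 units at an adjusted p of 0.0448, and against WT the difference was 0.69 ± 0.21 at an adjusted p of 0.106 (limma, SE, n = 3 each). The call against Gadd45a-KO was kept in 2 of 12 fits that left out 1 array, those without WT replicate 1 or 2.

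Dio2, the deiodinase that makes active thyroid hormone inside the cell and is induced by cyclic AMP, was dim and varied more. Its log2 signals were 7.35, 6.69 and 6.47 in DKO, 6.47, 6.05 and 5.98 in Ing1-KO, 6.88, 5.80 and 4.38 in Gadd45a-KO, and 6.07, 4.90 and 5.90 in WT. It was well above background on 2 of 3 Gadd45a-KO arrays and on every other array. DKO lay above WT, but Gadd45a-KO replicate 1 lay within the DKO range. The log2 fold change in DKO was 1.15 ± 0.52 against Gadd45a-KO and 1.21 ± 0.52 against WT (SE, n = 3 each), neither of them called, with adjusted p of 0.146 and 0.194 in limma. The first was 0.50 without Gadd45a-KO replicate 3 and 1.75 without Gadd45a-KO replicate 1.

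Tmem26, a membrane protein used as a surface marker of beige adipocytes, ran against the other 9 genes. Its log2 signals were 4.78, 5.03 and 5.78 in DKO, 5.78, 5.61 and 5.63 in Ing1-KO, 6.57, 6.81 and 6.64 in Gadd45a-KO, and 6.36, 5.90 and 6.11 in WT. The 6 arrays lacking Ing1 lay below the 6 others, and the Gadd45a-KO pools lay above the WT pools. Tmem26 fell in DKO to a 2.79-fold lower signal than in Gadd45a-KO, a log2 difference of -1.48 ± 0.24 at an adjusted p of 0.00971, while against WT the difference was -0.93 ± 0.24 at an adjusted p of 0.0806 (limma, SE, n = 3 each). Against WT the log2 difference was -0.45 ± 0.24 in Ing1-KO and 0.55 ± 0.24 in Gadd45a-KO, with 95% intervals of -0.98 to 0.08 and 0.02 to 1.08, and neither was called. The fall against Gadd45a-KO was called in 12 of 12 fits that left out 1 array. It was called in 24 of all 26 other fits, with log2 differences between -1.77 and -0.65. Against WT the difference lay between -1.22 and -0.47 in those fits. The Tmem26 probe was dim too, with a mean log2 signal of 5.92, and was well above background on all 12 arrays.

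**Figure D2:**
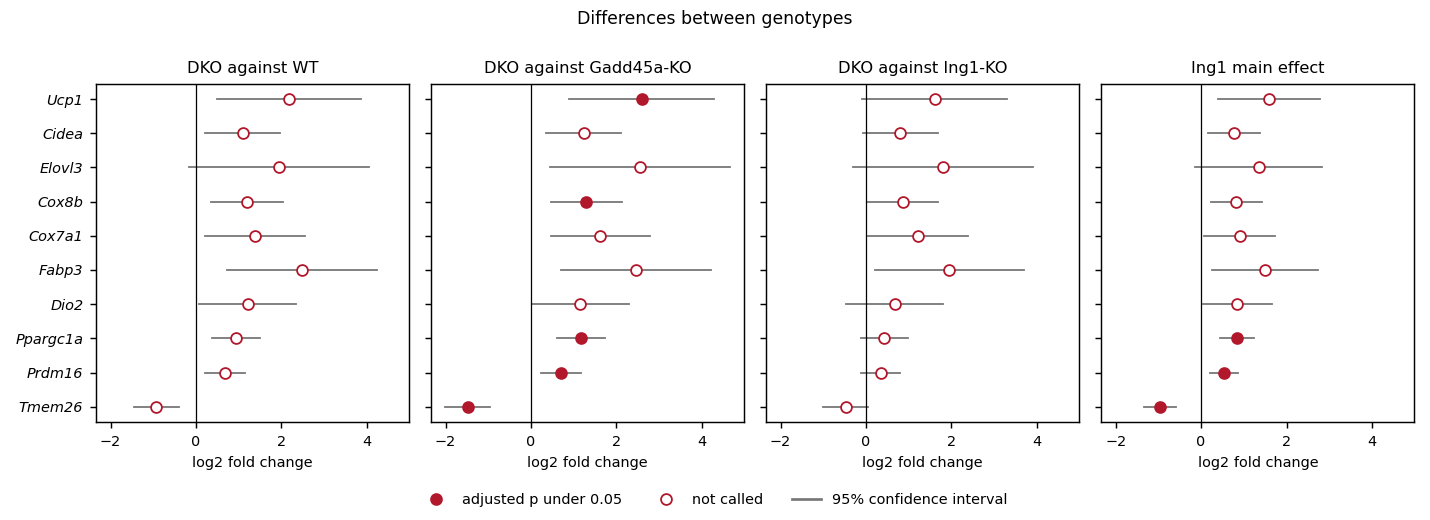
Log2 fold change of each of the 10 genes with its 95% interval in DKO against WT, DKO against Gadd45a-KO, DKO against Ing1-KO and, as Ing1 main effect, arrays lacking Ing1 against arrays with it; filled points passed an adjusted p under 0.05. Against Gadd45a-KO these are Ucp1, Cox8b, Ppargc1a, Prdm16 and Tmem26, and for Ing1 loss they are Ppargc1a, Prdm16 and Tmem26.

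Across the 10 genes, DKO against WT gave 0 calls, where 0.162% of all genes tested were called (limma). The 10 genes were chosen with earlier results known, so the shares of all genes here and below describe and do not test. At an unadjusted p under 0.05 there were 9 of 10 genes, where 23% of all tested had such a p. DKO did not overlap WT in 7 genes that were higher and 1 that was lower, against 9.66% and 12.6% of all genes tested. Of the 10 genes, 9 had a log2 fold change above 0, against 45.3% of all. The median was 1.21, against -0.04 for all genes. WT replicate 2, the dimmest array, lay above the mean of the other WT arrays in 8 of the 10 genes, by 2.00 log2 units for Ucp1 and 2.35 for Fabp3. Without it, 5 of the 10 genes were called in DKO against WT, where 3.79% of all tested were called, and 2 were called without DKO replicate 3, where 10.6% of all tested were called.

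DKO against Gadd45a-KO gave 5 calls among the 10, of which 4 rose and 1 fell, where 15% of all genes tested were called (limma), 6.49% as higher and 8.47% as lower. At an unadjusted p under 0.05 there were 10 of 10, against 32.9% of all, and 9 were above 0, against 47.2%. DKO did not overlap Gadd45a-KO in 7 genes that were higher and 1 that was lower, against 16.5% and 20.8% of all genes tested. The median log2 fold change of the 10 genes was 1.27, against -0.03 for all genes. That count was 1 without Gadd45a-KO replicate 2 or 3 and without DKO replicate 1 or 2, between 2 and 4 without WT replicate 1 or 3, Ing1-KO replicate 2 or 3, DKO replicate 3 or Gadd45a-KO replicate 1, and 8 without WT replicate 2. The share of all genes called moved too, between 1.68% without Gadd45a-KO replicate 3 and 22.5% without DKO replicate 3, and was 21.3% without WT replicate 2. The members' count was 0 with the array's column on the slide as a block, where 3 genes in all were called. DKO against Ing1-KO gave 0 calls among the 10, where 0.00318% of all genes tested were called, and 3 at an unadjusted p under 0.05, where 3.51% of all tested had such a p. In 9 of the 10 genes DKO was higher than Ing1-KO, against 51.8% of all, and in 6 it was higher without overlap, against 5.15% of all genes tested. The log2 difference from Ing1-KO was 1.95 ± 0.80 for Fabp3 and 1.21 ± 0.54 for Cox7a1 (SE, n = 3 each), and without Ing1-KO replicate 1 these were 1.05 and 0.70.

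Loss of Ing1 was also compared over both Gadd45a backgrounds, as the mean of 2 differences over 6 arrays lacking Ing1 and 6 arrays with it. In this comparison 2 of the 10 genes rose and 1 fell, where 16% of all genes tested were called (limma), 6.93% as higher and 9.09% as lower. At an unadjusted p under 0.05 there were 9 of 10, against 32.9% of all, and 9 were above 0, against 44.6%. Ppargc1a rose by 0.84 ± 0.18 with an adjusted p of 0.0155, Prdm16 rose by 0.53 ± 0.15 with an adjusted p of 0.0361, and Tmem26 had -0.96 ± 0.17 with an adjusted p of 0.00813 (log2 fold change, SE, limma, n = 6 each). The 6 arrays lacking Ing1 did not overlap the others in 1 gene, Tmem26, which was lower, against 4.91% of all genes. Ppargc1a and Tmem26 kept their call in 12 of 12 fits that left out 1 array and Prdm16 in 1 of 12, that without WT replicate 2. Without WT replicate 2 the count was 8, where 22.1% of all genes tested were called. For Ucp1 the effect of Ing1 loss was 1.58 ± 0.55 with an adjusted p of 0.0688, and for Cox8b 0.82 ± 0.27 with 0.0578 (log2 fold change, SE, limma, n = 6 each), neither of them called.

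Each single loss against WT gave 0 calls among the 10 genes. In Ing1-KO, 9 of the 10 log2 fold changes were above 0 and 0 had an unadjusted p under 0.05 in limma, where 0.00318% of all genes tested were called, 43.8% were above 0 and 8.6% had such a p. Tmem26 alone lay below WT without overlap, against 10.2% of all genes. In Gadd45a-KO, 3 of the 10 were above 0 and 1 had an unadjusted p under 0.05 in limma, where 0% of all were called, 50% were above 0 and 2.34% had such a p. Tmem26 alone lay above WT without overlap, against 5.52% of all genes. The effect of Gadd45a loss over both Ing1 backgrounds likewise gave 0 calls and 0 at an unadjusted p under 0.05 in limma, where 0.00318% and 0.935% of all genes tested passed. All 10 effects were above 0, against 50% of all genes, and that on Ucp1 was 0.60 ± 0.55 (log2 fold change, SE, n = 6 each).

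Whether both losses together differ from the sum of the single losses was tested by the interaction, the effect of Ing1 loss in Gadd45a-deficient mice less that in mice with Gadd45a. It was called in 0 of the 10 genes, where 0% of all genes tested were called (limma), with adjusted p between 0.728 and 0.822. At an unadjusted p under 0.05 there was 1 of 10, Tmem26, where 5.93% of all tested had such a p, and 9 were above 0, against 51.2% of all. These counts take the brightest probe of each gene. In the fit of every probe, the dimmer Ppargc1a probe had an interaction of 0.90 ± 0.31. Its unadjusted p was 0.0142 and its adjusted p 0.73 in limma. The log2 interaction was 2.02 ± 1.10 for Ucp1, with a 95% interval of -0.37 to 4.42, and -1.03 ± 0.34 for Tmem26, with an interval of -1.77 to -0.28 (SE, n = 3 arrays in each of 4 groups). Without Gadd45a-KO replicate 3 the Ucp1 interaction was 1.02.

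**Figure D3:**
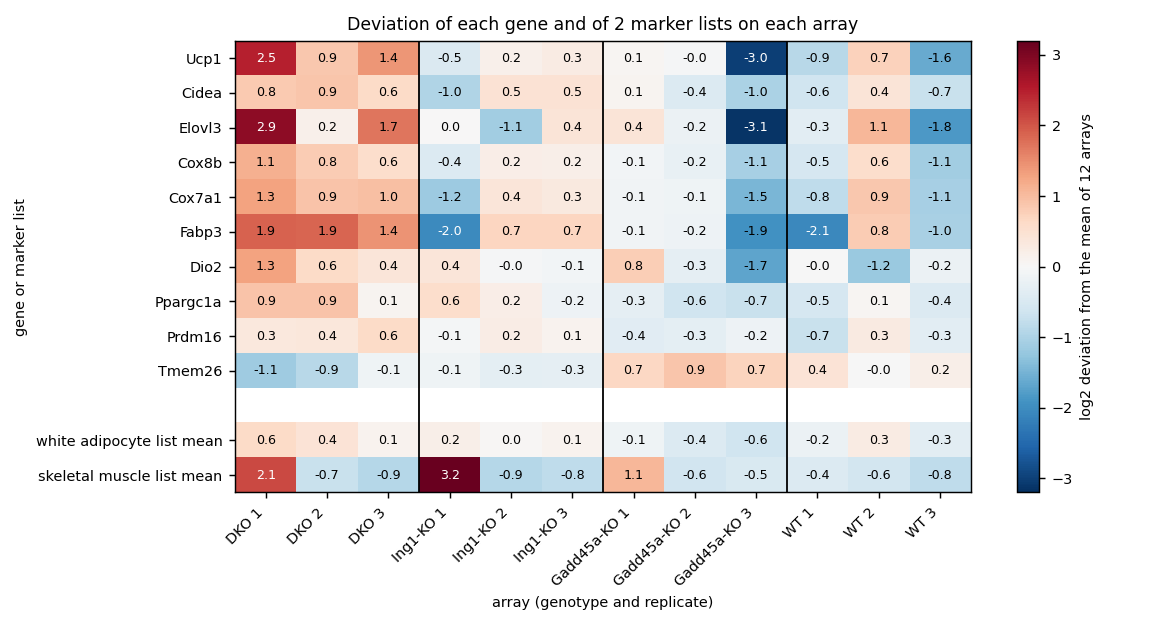
Deviation of each gene's log2 signal from its mean over the 12 arrays, with arrays in columns (DKO, Ing1-KO, Gadd45a-KO, WT, by replicate) and genes in rows, above the mean deviation of white adipocyte and skeletal muscle markers. The lowest Ucp1 value is in Gadd45a-KO replicate 3, and WT replicate 2 lies above the other WT arrays for 8 of the 10 genes.

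The spread between pools of one genotype differed from gene to gene. Elovl3, Fabp3 and Ucp1 had SDs within genotypes of 1.43, 1.19 and 1.15 log2 units, larger than in 99.39%, 98.94% and 98.83% of all genes tested. The spread was 0.30 for Tmem26 and 0.28 for Prdm16, near the median of 0.27 over all genes. For Ppargc1a it was 0.36, larger than in 69.5% of all genes tested. Several mitochondrial and lipid genes varied together. Over the 12 arrays Pearson's r was 0.967 between Cidea and Cox7a1, 0.965 between Cidea and Fabp3, 0.943 between Ucp1 and Cox8b and 0.939 between Ucp1 and Elovl3. Elovl3 was less alike to Cidea and Fabp3, with an r of 0.694 and 0.670 over all arrays and 0.461 and 0.421 once genotype means were taken away. These pairs share the same RNA pools and the same scaling. Ucp1 and Ppargc1a had an r of 0.707 over all arrays and 0.326 once genotype means were taken away, and Dio2 and Prdm16 had 0.180 and -0.633.

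Some arrays stood apart in several genes. Gadd45a-KO replicate 3 lay 3.01 log2 units below the mean of the other Gadd45a-KO arrays for Ucp1 and 1.32 below it for Cox7a1, and 0.19 above it for Prdm16. Ing1-KO replicate 1 lay 2.72 below the other Ing1-KO arrays for Fabp3 and 1.52 below them for Cox7a1. That array was also the highest of all in skeletal muscle markers. Muscle expresses Fabp3, Cox7a1 and Cox8b as well. All 3 genes were lower on that array than on the other Ing1-KO arrays, with Cox8b 0.65 log2 units below their mean. The summed linear signal of the 15 muscle markers tested ranged between 4101 and 13650 units in DKO, 5541 and 36965 in Ing1-KO, 7181 and 10439 in Gadd45a-KO and 5560 and 7496 in WT. In DKO 0 of the 15 were called against WT and 0 against Gadd45a-KO, where 0.162% and 15% of all genes tested were called. Without the 3 arrays highest in these markers, replicate 1 of DKO, Ing1-KO and Gadd45a-KO, the log2 fold change of Ucp1 in DKO over Gadd45a-KO was 2.67 with an adjusted p of 0.14 in limma, and 0 of the 10 genes and 1 gene in all were called. The part of muscle RNA in the members' levels was not tested beyond these fits.

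The genes most like Ucp1 in their pattern were found by Pearson's r of log2 signals over the 12 arrays among 14962 named genes. Among the highest were Cox5a, a subunit of cytochrome c oxidase, with 0.982, the ubiquitin-conjugating enzyme Ube2g1 with 0.966, and Ndufb8 and Ndufv1, subunits of respiratory complex I, with 0.962 and 0.961. Most like Ppargc1a were Serinc1 with 0.982, Rab34 with 0.974, Selenbp1 and Cmbl with 0.972 each, and the lipid droplet protein gene Plin4 with 0.972. The top genes were thus different for Ucp1 and Ppargc1a.

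Paralogues of the 10 genes moved less and not in one direction. By the brightest probe of each gene, 2 of 16 tested rose and 2 fell in DKO against Gadd45a-KO, where 6.49% of all genes tested were called as higher and 8.47% as lower, with a median log2 fold change of 0.48. Against WT 0 were called, where 0.162% of all genes tested were called, with a median of 0.10. Ucp2, an uncoupling protein family member expressed in many tissues and in immune cells, averaged 10.66 ± 0.38 in DKO, 11.25 ± 0.23 in Ing1-KO, 11.54 ± 0.23 in Gadd45a-KO and 11.37 ± 0.21 in WT (log2 signal, SD, n = 3 each). It fell in DKO against Gadd45a-KO by a log2 difference of -0.89 ± 0.20 (SE; limma, adjusted p = 0.0196, n = 3 each). The 2 probes of Ucp3, known mainly from muscle and brown fat, disagreed, so that no direction is given for this gene. The brighter one had -0.51 ± 0.12 in DKO against Gadd45a-KO with an adjusted p of 0.0237, and the other, in the fit of every probe, had 1.33 ± 0.26 with an adjusted p of 0.0141 (log2 difference, SE, limma, n = 3 each). On the dimmer probe the DKO arrays had 9.54, 9.67 and 9.59 and the Gadd45a-KO arrays 8.71, 8.42 and 7.70. Ppargc1b, the close relative of Ppargc1a, rose with 0.67 ± 0.21, and Fabp5, the epidermal fatty acid carrier, rose with 0.74 ± 0.23, with adjusted p of 0.0488 and 0.0496 in limma.

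The more widely expressed forms, and the other paralogues, were not called on their brightest probe. In DKO against Gadd45a-KO the log2 difference was 0.44 ± 0.23 for Cox8a and 0.61 ± 0.25 for Cox7a2, and -0.10 ± 0.12 for Cox7a2l, which helps to assemble respiratory supercomplexes (SE, n = 3 each). For the lipid droplet proteins Cidec and Cideb it was 0.59 ± 0.21 and 0.51 ± 0.44, while the dimmer Cidec probe had 1.19 ± 0.26 and passed in the fit of every probe with an adjusted p of 0.018 in limma. For Fabp4, the main fatty acid carrier of adipocytes, it was 0.18 ± 0.14. Of the elongases, Elovl6 had 0.67 ± 0.47, Elovl5 0.17 ± 0.11 and Elovl1 -0.13 ± 0.10. Dio1, a deiodinase best known from liver and kidney, had 0.64 ± 0.25, Mecom, a relative of Prdm16, 0.68 ± 0.30, and Pprc1, a relative of Ppargc1a, -0.45 ± 0.19. Other probes of Dio1 and Cox7a2l had the opposite sign, with -1.04 ± 0.51 and 0.31 ± 0.12, and were not called.

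Among genes that carry or limit the thermogenic signal, some rose. Of 22 ligands, receptors and signalling genes, taken by their brightest probe like the lists that follow, 4 rose and 0 fell in DKO against Gadd45a-KO, where 6.49% of all genes tested were called as higher and 8.47% as lower, with a median log2 fold change of 0.44. They include Thrb, a thyroid hormone receptor, with 1.14 ± 0.21, Prkar2b, the main regulatory subunit of protein kinase A in fat, with 0.84 ± 0.17, and Pde3b, which breaks down cyclic AMP on insulin's signal, with 0.77 ± 0.17 (SE, n = 3 each), at adjusted p of 0.0117, 0.0162 and 0.0187 in limma. Adcy3, which makes cyclic AMP, had 0.84 ± 0.29 with an adjusted p of 0.0687 and was not called. In the fit of every probe, dimmer probes of Adrb3 and Fgfr1 rose with 1.16 ± 0.29 and 0.89 ± 0.24. A dimmer Creb1 probe fell with -0.54 ± 0.16. Their adjusted p in limma were 0.0257, 0.0329 and 0.0409, while the brightest probes of these genes were not called. Over both backgrounds, loss of Ing1 raised 5 of the 22, where 6.93% of all genes tested rose, among them Adcy3 with 0.79 ± 0.21 and an adjusted p of 0.0274 in limma.

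Of 21 transcriptional partners and inhibitors of the thermogenic programme, 5 rose and 0 fell in DKO against Gadd45a-KO, against the same 6.49% and 8.47% of all genes, with a median log2 fold change of 0.39. Ppara, a nuclear receptor for fatty acids, rose with 1.22 ± 0.28, Ebf2, which marks brown precursors, with 0.94 ± 0.17, and Rxrg, a retinoid X receptor, with 0.83 ± 0.23, at adjusted p of 0.0213, 0.0121 and 0.0338 in limma. Another probe of Rxrg had 0.52 ± 0.21, and 1 of the 3 probes of Ppara had 0.74 ± 0.30, neither of them called in the fit of every probe. Esrrg, an oestrogen-related receptor of oxidative tissues, had 0.76 ± 0.28 with an adjusted p of 0.0874. Ppara averaged 12.55 ± 0.04 in DKO, 12.08 ± 0.35 in Ing1-KO, 11.33 ± 0.35 in Gadd45a-KO and 11.34 ± 0.63 in WT (log2 signal, SD, n = 3 each), and Ebf2 averaged 11.13 ± 0.33 in DKO, 10.91 ± 0.28 in Ing1-KO, 10.20 ± 0.07 in Gadd45a-KO and 10.44 ± 0.12 in WT. Over both Gadd45a backgrounds, loss of Ing1 raised both, Ppara by 0.98 ± 0.20 and Ebf2 by 0.71 ± 0.12 log2 units (SE; limma, adjusted p = 0.0127 and 0.00747, n = 6 each).

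A further 18 markers of brown or beige adipocytes had a median log2 fold change of 0.77 in DKO against Gadd45a-KO, with 15 above 0, 1 that rose and 1 that fell, against 6.49% and 8.47% of all genes. Plin5, which ties lipid droplets to mitochondria, rose with 1.12 ± 0.32, and Epsti1, reported as a brown fat marker and also induced by interferon, fell with -1.23 ± 0.32 (SE, n = 3 each), at adjusted p of 0.0392 and 0.0291 in limma. Slc27a2, a fatty acid transporter, and Ntrk3, a neurotrophin receptor, had 1.28 ± 0.41 and 0.99 ± 0.35 and were not called, with adjusted p of 0.0536 and 0.0704 in limma. Of 8 genes of heat-producing cycles that do not need UCP1, 2 rose and 0 fell, the calcium pump Atp2a2 with 0.57 ± 0.13 and the creatine transporter Slc6a8 with 0.49 ± 0.15, at adjusted p of 0.0212 and 0.047 in limma. The dimmer Atp2a2 probe had 0.48 ± 0.22 and was not called. Glycerol kinase (Gk) and the creatine synthesis gene Gamt had 0.56 ± 0.21 and 0.55 ± 0.19 and were not called. Against WT, 0 members of each of these lists were called on their brightest probe, where 0.162% of all genes tested were called. In the fit of every probe, dimmer probes of Prkar2b passed against WT. They had 1.10 ± 0.19 and 1.00 ± 0.15, with adjusted p of 0.0494 and 0.0312 in limma. Dio3, Bmp8b, Ckmt2 and Ryr2 were too dim to be tested.

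**Figure D4:**
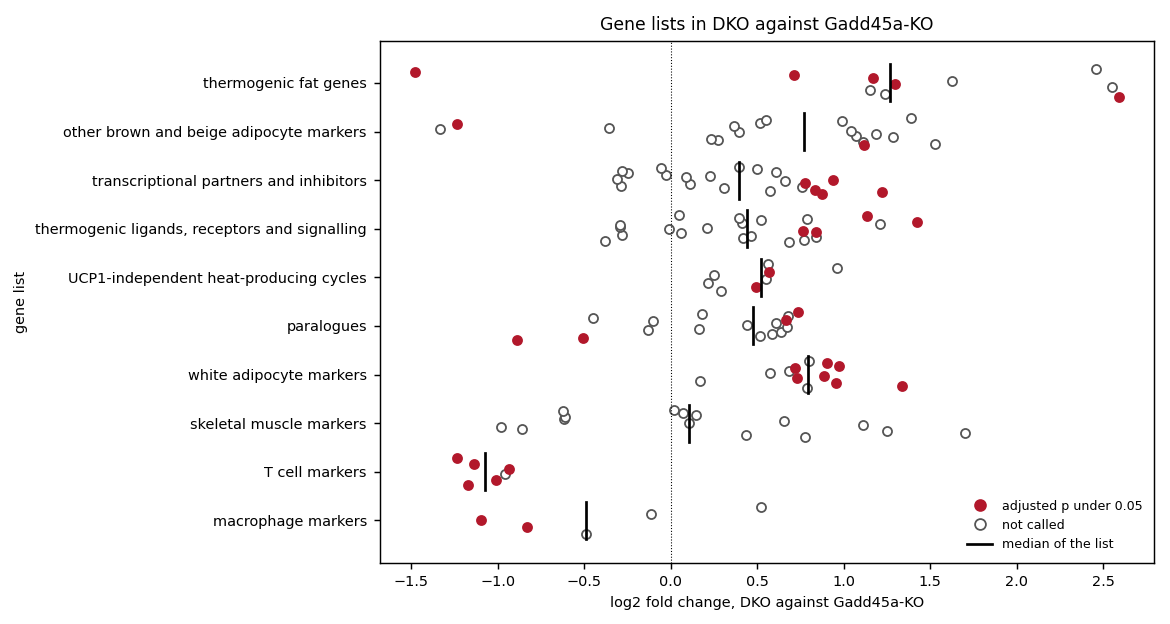
Log2 fold changes in DKO against Gadd45a-KO of the members of each gene list, with the median of each list as a bar and a dotted line at 0; filled points passed an adjusted p under 0.05. White adipocyte markers lie around a median of 0.80 and T cell markers around -1.07.

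Markers of other cell types moved with the same contrast. Of all genes tested, 6.49% were called as higher and 8.47% as lower there. All 12 white adipocyte markers had a higher mean in DKO than in Gadd45a-KO and 7 were called, with a median log2 fold change of 0.80, among them leptin (Lep) with 1.34 ± 0.24, Cd36 with 0.97 ± 0.18, perilipin (Plin1) with 0.73 ± 0.20 and lipoprotein lipase (Lpl) with 0.72 ± 0.16 (SE, n = 3 each). Their summed linear signal ranged between 1178665 and 1629384 units in DKO, 1124822 and 1231630 in Ing1-KO, 857747 and 1046777 in Gadd45a-KO and 898997 and 1484745 in WT, with the highest WT value in WT replicate 2. T cell markers were lower: 5 of 6 fell, with a median of -1.07, among them Cd3e with -1.01 ± 0.24 and Cd8a with -1.23 ± 0.31, whose dimmer probe had -0.89 ± 0.35 and was not called. Their summed signal ranged between 21075 and 52897 units in DKO, 40893 and 62813 in Ing1-KO, 67311 and 87395 in Gadd45a-KO and 56400 and 74986 in WT. Of 5 macrophage markers 2 fell, Csf1r with -0.83 ± 0.12 and Itgax with -1.10 ± 0.23. Other Csf1r probes had -0.72 ± 0.25 and -0.29 ± 0.15 and were not called. Adgre1 had -0.49 ± 0.28, and Cd163 went the other way with 0.52 ± 0.35, neither of them called. The sum of the 5 ranged between 20185 and 24749 units in DKO, 21873 and 26670 in Ing1-KO, 34777 and 39519 in Gadd45a-KO and 24608 and 31591 in WT.

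A few nerve, endothelial and mesothelial markers were called as well. Sox10, a transcription factor of Schwann cells, rose with 0.62 ± 0.18, while Th, the rate-limiting enzyme of noradrenaline synthesis, had 0.65 ± 0.23 with an adjusted p of 0.0751 in limma and was not called (log2 fold change in DKO against Gadd45a-KO, SE, n = 3 each). Of 5 endothelial markers 1 rose, the receptor Tek with 0.97 ± 0.24, and of 2 tested mesothelial markers 1 rose, Lrrn4 with 0.86 ± 0.21, while the other, Krt19, had -0.64 ± 0.51 and was not called. The part of these cell types in the members' differences was not tested.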

How the data were processed

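Total RNA of gonadal white fat was labelled with Cy3 and hybridized to 12 arrays of 1 colour. The deposited files of the scanner give spot intensity, made with Feature Extraction 10.7.3.1 per the file headers. Its processed signal had its background subtracted and was not scaled between arrays. The table deposited by the authors holds log2 values, for which the submitters' processing notes name limma 3.26.9. Its scaling and its filter are not given in the sources used here, and its column medians lie between 7.82 and 7.85. It served as an alternative, after each column was found to correlate with its own array at 0.843 or higher and with another at 0.422 at most.

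Spots marked by the scanner software were left out, log2 processed signals were averaged per probe, and each array was shifted to a common 75th percentile. Probes well above background on at least 3 arrays were kept, with the brightest probe per gene, except in the fit of every probe. Of 29150 probes with a RefSeq accession, 27509 were named. The depth of an array cannot be given as a count, so the number of arrays limits the precision. Models with 4 genotype means, 12 arrays and 8 residual degrees of freedom were fitted in R 4.3.3 (limma 3.58.1), with an intensity trend and robust moderation, and tests are two-sided. On simulated data for DKO against WT with 31447 genes, 47% of changes of 2-fold and 92% of changes of 4-fold were recovered, with 5 false calls. The changed genes were drawn at random, and genes varied independently, without shifts that many genes of a pool share. These shares therefore do not hold for genes of wide spread such as Ucp1, Fabp3 and Elovl3.

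The members and gene lists were chosen with earlier results of these data known. Named are the 2 targeted genes, the members, their paralogues, up to 4 genes per other list with the smallest p in DKO against WT, and the 5 genes most like Ucp1 and Ppargc1a. Some genes under this rule are not reported here. Arrays with the same replicate number lie on the same slide and were scanned together, per the file headers. Same-numbered arrays had correlations of their deviations from genotype means between 0.0965 and 0.282 on slide 1. These lay between -0.276 and 0.295 on slide 2 and between -0.081 and 0.424 on slide 3. The main fit did not take the numbers to pair the pools. With the slide as a block, 2.08% of all genes were called in DKO against WT, against 0.162% without it. In DKO against Gadd45a-KO 19.4% were called, against 15%, and for the effect of Ing1 loss 20.2%, against 16%. No 2 arrays of a genotype were alike enough to be 1 sample. Alternatives were other scalings, background correction, filters, moderation, blocks, a muscle covariate and leaving arrays out.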

Additional observations from a re-analysis of the deposited data

How the results depend on the processing

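The directions of the 10 genes in DKO against WT, DKO against Gadd45a-KO, DKO against Ing1-KO and the effect of Ing1 loss were kept in every alternative run, while calls were not. In DKO against WT the count of members called was 0, where 0.162% of all genes tested were called. With the slide as a replicate block it was 1, where 2.08% of all were called. Leaving out 1 array at a time gave 0 to 5, with 0.00318% to 10.6% of all genes called. In DKO against Gadd45a-KO the count was 5, where 15% of all genes tested were called. It became 8 when centring on the median (13.5% of all) and 7 with the replicate block (19.4%). With the array row as a block (10.6%) or the skeletal muscle covariate (14.1%) it was 3. It was 2 without a filter (6.25%), with plain empirical Bayes (10.4%) or with only the arrays compared (1.6%). With the array column as a block it was 0, where 0.00954% of all were called. Without the 3 arrays highest in muscle markers it was 0, where 0.00318% of all were called. Leaving out 1 array gave 1 to 8, with 1.68% to 22.5% of all genes called. For the effect of Ing1 loss the count was 3, where 16% of all genes tested were called. It became 5 with quantile normalization (15.8% of all) or the authors' values (14%), and 4 with the replicate block (20.2%). With the array column as a block it was 0, where 0.124% of all were called. Without those 3 arrays it was 0, where 0.00318% of all were called. Leaving out 1 array gave 2 to 8, with 6.05% to 22.5% of all genes called. The number of all genes called moved as well, between 1 and 3321 in DKO against WT (51 as reported) and between 1 and 7064 in DKO against Gadd45a-KO (4703 as reported). For the effect of Ing1 loss that number lay between 1 and 7086 (5037 as reported). The other 5 comparisons stayed at 0 members called in each alternative, and the replicate block changed no call there.

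Among differences that were not called, signs changed in 31 of 258 fits of Gadd45a-KO against WT, 10 of 258 of Ing1-KO against WT, 6 of 248 of the effect of Gadd45a loss and 1 of 248 of the interaction. Ucp1 in Gadd45a-KO against WT was 0.25 without WT replicate 2 and 0.59 without Gadd45a-KO replicate 3, and ranged between -0.94 and 0.59 with 1 array left out. The Dio2 interaction was -0.044 without Gadd45a-KO replicate 3 and ranged up to 1.21 without Gadd45a-KO replicate 1, and the effect of Gadd45a loss on Ucp1 was -0.0053 without the 3 arrays highest in muscle markers. The cause was not tested. Under normexp background correction the median log2 difference of all genes relative to WT was -0.10 in DKO and -0.13 in Ing1-KO, each -0.04 as reported, and that of the interaction was 0.12, against 0.01 as reported. Dio2 and Elovl3 have no value when a probe must be above background on all 12 arrays, and where few arrays are bright enough, dim signals limit what can be told.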
